A study of Equus caballus with 45 samples.

Results

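The comparison of equine bone marrow mesenchymal stromal cells (MSC) given a STING agonist with untreated MSC asked which genes change when the cytosolic DNA sensing pathway of these cells is switched on. MSC are adherent, fibroblast-like cells that grow out of bone marrow aspirates and are tested as a cell therapy for joint disease. It was chosen by cell type and treatment and rests on 6 of the 45 RNA sequencing libraries of the series. The donors were 3 horses, labelled PC, 99 and 92, all of a single breed and aged 3 to 4 years according to the methods (2 females and 1 male). Each donor gave 1 library per condition. STING activated MSC received 2′3′-cGAMP for 2 h, were washed and were cultured for a further 24 h before lysis. The sample labels give the agonist at 10 ng/mL and the methods at 10 μg/mL, so the dose is uncertain. Untreated MSC came from the same donors. Both conditions were cultures of passage 2 to 3 cells, and RNA was taken from the whole culture, so a change in a transcript and a change in the share of cells that hold it cannot be told apart. MSC of the same donors given the TLR3 agonist poly I:C (3 libraries) and MSC labelled CpG (3 libraries), a treatment that the methods do not describe, were used for direct contrasts with STING activated MSC. The TLR3 agonist library of donor 92 stood apart before any test, with antiviral genes at the level of untreated MSC, and the contrast with the TLR3 agonist is given with and without donor 92.

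By way of background, cGAS is an enzyme that detects DNA in the cytosol and makes the cyclic dinucleotide 2′3′-cGAMP. This second messenger binds STING on the endoplasmic reticulum, after which the kinase TBK1 activates the transcription factor IRF3 and type I interferon genes are transcribed. Secreted interferon acts on its receptor, the kinases JAK1 and TYK2 and a transcription factor complex that holds STAT2 and IRF9, which turns on the interferon-stimulated genes. STING can also activate NF-kB, which drives inflammatory cytokines. Supplying 2′3′-cGAMP from outside enters this route below cGAS.

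The 6 libraries held 28570632 to 48320694 counts on protein coding genes, and the 10 most abundant genes took 9.52% to 14.7% of them. A count of 3, taken as the floor of the measurement, was 0.0621 to 0.105 CPM, the count of a gene per 1000000 counts of the library total scaled with edgeR's TMM factors. Without molecular identifiers on the reads, intervals and floors speak of counting error alone. Donors dominated the variation. In a principal component analysis of the 6 libraries the first component held 54.7% of the variance, with 99.9% of its spread between donors, whereas the third held 13.9%, with 84.4% of its spread between conditions. Markers of the labelled cell type were present. THY1 (CD90) ran from 171 to 841 CPM, CD44 from 175 to 521 CPM and PDGFRB from 159 to 410 CPM over the 6 libraries. NT5E (CD73), another MSC marker, was lower, at 7.57 to 21.1 CPM. The leukocyte gene PTPRC (CD45) did not exceed 0.0572 CPM, the B cell gene MS4A1 had no counts, and CD14 stayed below 0.65 CPM. Not every marker of other cell types was near the floor. The endothelial gene PECAM1 ran from 27.1 to 51.2 CPM, and the macrophage marker CD68 was at 12 to 15.4 CPM in untreated MSC.

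Of 14479 genes with at least 10 counts over the 6 libraries, 174 differed between STING activated and untreated MSC at an adjusted p-value under 0.05 (1.2% of genes tested). The test was edgeR's quasi-likelihood test with the donor as a block and Benjamini-Hochberg adjustment over all genes tested, and it is the test behind every adjusted p-value against untreated MSC given here. The change was almost wholly upward, with 167 genes higher (1.15% of genes tested) and 7 lower (0.0483%) in STING activated MSC. Each of the 167 genes was higher in 3 of 3 donors, a pattern that 13.4% of all genes tested showed. In 147 of the 167, every STING activated library lay above every untreated one, against 3.5% of all genes tested. The 167 were chosen as higher in these same libraries, so both counts are a description. The median log2 fold change of the 167 genes was 2.88, and 39 of them reached 5 or more on this scale. Together they took 0.399% to 0.471% of all counts in untreated MSC and 2.77% to 5.38% in STING activated MSC. Across genes the biological coefficient of variation around the donor and condition means was 20.3%, on 2 residual degrees of freedom.

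The count of changed genes depended strongly on the design of the fit. Without the donor as a block 54 genes passed, and all 54 were among the 167 that rose. When the spread was estimated over the 9 untreated, TLR3 agonist and STING agonist libraries, 2 genes passed (CXCL11 and LAG3), and over all 12 MSC libraries 15 passed. Leaving the TLR3 agonist library of donor 92 out of the 12 gave 196 genes, 161 of them shared with the 174, a setting chosen after seeing the data. Leaving out both libraries of donor PC gave 160 of 14110 genes tested (152 higher and 8 lower). Without donor 99 there were 308 of 14070 (253 higher and 55 lower), and without donor 92 725 of 14060 (446 higher and 279 lower). Of these, 139, 174 and 170 were shared with the 174. With no adjustment, 616 genes were higher (4.25%) and 457 lower (3.16%) at p under 0.05 in the same fit. The thresholds of the study (unadjusted p up to 0.05 together with a log2 fold change of 2 or more, up or down) gave 156 genes higher (1.08%) and 27 lower (0.186%).

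**Figure D1:**
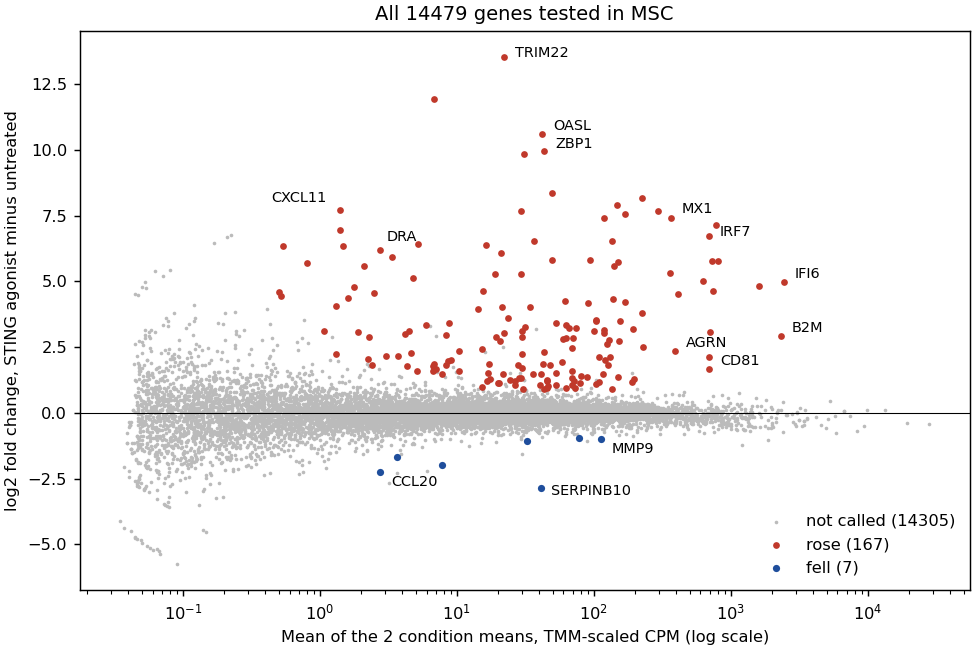
Each point is 1 of the 14479 genes tested, with the mean of the condition means in TMM-scaled CPM on the x axis (log scale) and the log2 fold change of STING activated against untreated MSC on the y axis. Genes that rose (167, red) reach far above the grey cloud of genes that did not pass the test, while the 7 that fell (blue) lie close to its lower edge; TRIM22 is drawn at its fitted value although its untreated libraries hold no counts.

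Antiviral effectors made up the largest group of genes that rose. Of 55 tested members of a list of interferon-stimulated antiviral genes, 50 rose and none fell, with a median log2 fold change of 3.35 against −0.01 for all genes tested. MX1, a dynamin-like GTPase that traps viral nucleocapsids, was at 1.41, 6.12 and 6.85 CPM in untreated MSC of donors PC, 99 and 92 and at 530, 964 and 670 CPM after the agonist. All 3 activated libraries lay far above all 3 untreated ones, and the log2 fold change was 7.40 (SE 0.39, adjusted p = 6.31e-05, edgeR). BST2 (tetherin), which holds budding virus particles at the cell surface, went from 3.76, 5.21 and 0.397 CPM to 675, 969 and 122 CPM. Donor 92 had the lowest BST2 value in both conditions, yet its increase was the steepest of the 3 donors, and the log2 fold change was 7.69 (SE 0.23, adjusted p = 5.37e-06, edgeR). ISG15, a ubiquitin-like protein that is attached to other proteins, was at 7.96, 7.84 and 14.4 CPM untreated and at 1468, 2414 and 733 CPM after the agonist (log2 fold change 7.16, SE 0.54, adjusted p = 0.000299, edgeR). UBE2L6, the conjugating enzyme for ISG15, rose by a log2 fold change of 2.87. IFI6, an endoplasmic reticulum membrane protein, had 110, 197 and 117 CPM untreated and 4538, 7306 and 2378 CPM after the agonist (log2 fold change 4.98, SE 0.25).

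TRIM22, a ubiquitin ligase with antiviral activity, had no count in any of the 3 untreated libraries and 2087, 1700 and 805 counts in the activated libraries of donors PC, 99 and 92. Against a floor of 3 counts over the untreated group, this is at least 1710-fold higher. OASL, an oligoadenylate synthetase-like protein, had 2, 1 and 2 counts untreated and 3590, 4536 and 800 counts activated, and OAS2, which makes the 2′-5′ oligoadenylates that activate RNase L, went from 40.7, 39.6 and 23.9 CPM to 973, 733 and 677 CPM. IFIT3, of a family that binds viral RNA ends, was at 0.899, 2.03 and 0.752 CPM and then at 667, 595 and 83.2 CPM (log2 fold change 8.18, SE 0.50), with donor 92 well below the other two. RSAD2 (viperin), which makes a chain-terminating nucleotide, was at 1.12, 0.629 and 0.899 CPM and then at 57.2, 32.6 and 21.98 CPM, and CMPK2, a mitochondrial nucleotide kinase, rose by a log2 fold change of 4.27. XAF1, an apoptosis-associated protein, had 16, 18 and 0 counts untreated and 3702, 5024 and 1621 counts activated. GBP5, an interferon-induced GTPase, rose by 4.23, RNF213, a giant ubiquitin ligase, by 3.82, IFI44 by 6.54, RTP4 by 7.68, DDX60L by 7.57, HELZ2 by 2.78 and the secreted glycoprotein LGALS3BP by 5.01 on the log2 scale. IFIT2 and IFIT5 rose by 4.02 and 2.84 on the same scale. The 5 members that did not pass, named after their values were seen, were PLSCR1 (log2 fold change 0.19), GBP6 (0.36), PNPT1 (0.82), N4BP1 (0.07) and TENT5A (0.28). Reads of the IFIT, OAS and GBP families can map to more than 1 family member, so values of single members carry that uncertainty.

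**Figure D2:**
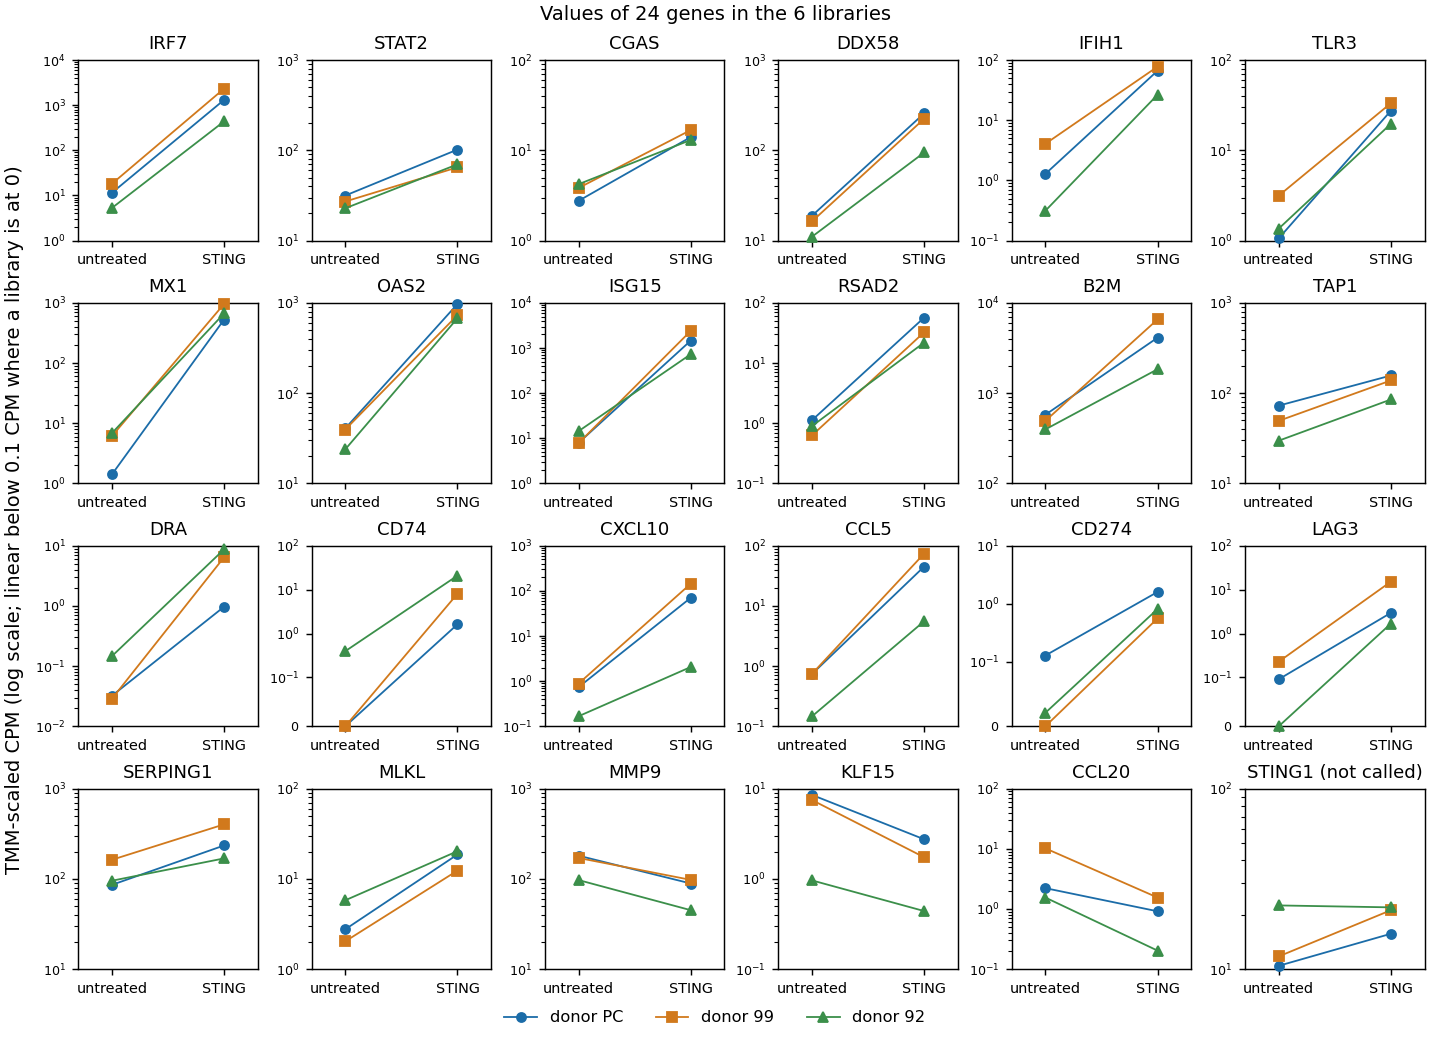
TMM-scaled CPM of 24 genes in untreated and STING activated MSC, with 1 line per donor (PC blue circles, 99 orange squares, 92 green triangles); axes are logarithmic, and linear below 0.1 CPM where a library is at 0. Lines rise in all donors for the genes in the upper panels, from IRF7 to MLKL, and drop in all donors for MMP9, KLF15 and CCL20, while STING1, which was not called, moves up in donors PC and 99 but not in donor 92.

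Few genes of the STING route itself passed the test. Of 20 tested members of a cGAS-STING pathway list, 2 rose and none fell, with a median log2 fold change of 0.16. CGAS, the DNA sensor upstream of the agonist, was at 2.76, 3.83 and 4.22 CPM untreated and at 14.1, 16.8 and 13.1 CPM after it (log2 fold change 2.03, SE 0.22, adjusted p = 0.00318, edgeR). IRF7, the transcription factor that amplifies type I interferon production, was at 11.5, 18.2 and 5.29 CPM and then at 1315, 2334 and 439 CPM, and the increase of 6.75 on the log2 scale (SE 0.21, adjusted p = 5.37e-06, edgeR) left no overlap between the groups. STING1, the receptor of the agonist, was at 10.4, 11.8 and 22.5 CPM untreated and at 15.7, 21.2 and 21.98 CPM activated, so the groups overlapped (log2 fold change 0.47, SE 0.22, adjusted p = 0.727, edgeR). The kinase TBK1 had a log2 fold change of 0.29 (SE 0.17) and the transcription factor IRF3 of −0.04 (SE 0.14). The exonuclease TREX1, which degrades cytosolic DNA, had 0.60 (SE 0.31), and the dNTPase SAMHD1 had −0.42 (SE 0.24), neither of which passed the test.

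Among RNA sensors and their adaptors, 7 of 18 tested members rose and none fell (median log2 fold change 1.24). They included all 3 RIG-I-like receptors. DDX58 (RIG-I) went from 18.9, 16.3 and 11.1 CPM to 257, 224 and 94.7 CPM (log2 fold change 3.55, SE 0.20), IFIH1 (MDA5) rose by 5.29 on the log2 scale and DHX58 (LGP2), their regulator, by 7.42. TLR3, the endosomal receptor for double-stranded RNA, was at 1.06, 3.15 and 1.36 CPM and then at 27.5, 33.3 and 19.7 CPM, with no overlap (log2 fold change 3.94, SE 0.28, adjusted p = 0.000229, edgeR). ZBP1, a sensor of Z-form nucleic acid, had 6, 3 and 0 counts untreated and 2827, 4984 and 1366 counts activated. The double-stranded RNA kinase EIF2AK2 (PKR) rose by 2.88 and the RNA editing enzyme ADAR by 1.61 on the log2 scale. The adaptor MAVS had a log2 fold change of 0.02 (SE 0.15) and the ubiquitin ligase TRIM25 of 1.37 (SE 0.33, adjusted p = 0.18, edgeR).

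The interferon transcripts examined were at or near the floor in RNA taken 24 h after the agonist was washed off, and earlier times were not measured. Of 13 listed interferon and receptor genes 11 had a row in the deposited counts, and other interferon genes were not examined. IFNB1, IFNA1 and IFNG had no counts in any of the 6 libraries, IFNE had 1 count in the untreated and 8 in the activated libraries together, and IFNK had 2 and 3. A count of 0 in a library allows up to 0.0621 to 0.105 CPM. Of 6 tested interferon receptor chains 0 passed by edgeR or DESeq2, 1 was lower at an unadjusted p under 0.05, and 1 fell without donor 92 (edgeR). Of all genes tested, 3.16% were lower at that unadjusted p, and 279 of 14060 fell without donor 92 (edgeR). IFNAR1 was at 44.6, 43.3 and 31.9 CPM untreated and at 30.8, 18.2 and 34.0 CPM activated (log2 fold change −0.56, SE 0.25, adjusted p = 0.686, edgeR). IFNAR2, the other chain of the type I interferon receptor, was lower in 3 of 3 donors, a pattern that 14.1% of all genes tested showed, but did not pass either (log2 fold change −0.37, SE 0.17).

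Below the receptor, 7 of 23 tested JAK, STAT and IRF regulators rose and none fell (median log2 fold change 0.42). STAT2, a transcription factor activated at the receptor, rose by 1.52 (SE 0.16) and its DNA-binding partner IRF9 by 3.04 (SE 0.19) on the log2 scale. USP18, which removes ISG15 and dampens receptor signalling, went from 0.257, 2.52 and 3.03 CPM to 92.0, 111 and 87.0 CPM, so donors that started far apart ended at similar values. The transcription factor BATF2 rose by 3.41, and the interacting proteins IFI35 and NMI rose by 2.75 and 1.21 on the log2 scale. The kinases JAK1 (−0.23), TYK2 (−0.14) and JAK2 (0.72, adjusted p = 0.154, edgeR), the transcription factor IRF1 (0.42) and the feedback inhibitor SOCS1 (1.05, adjusted p = 0.313, edgeR) had log2 fold changes that did not pass.

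**Figure D3:**
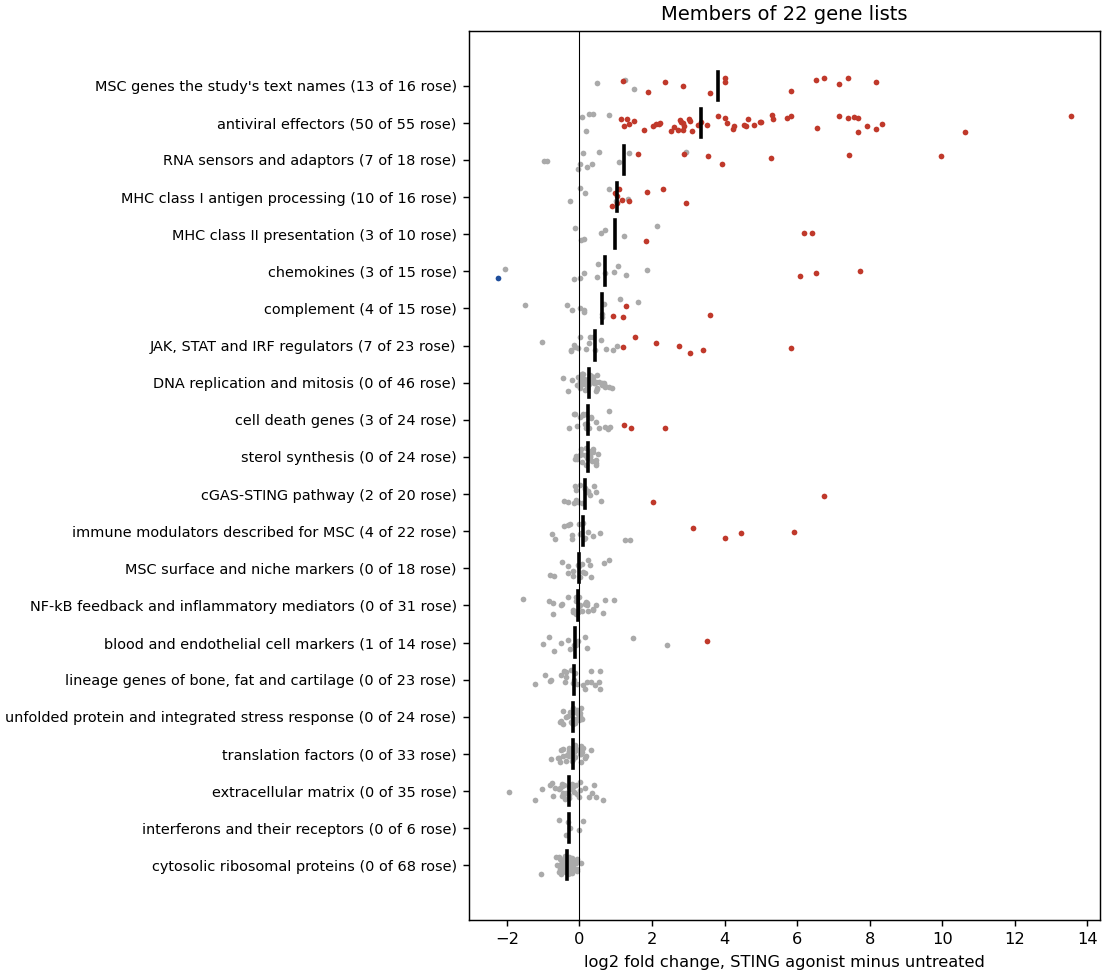
Log2 fold changes of STING activated against untreated MSC for the tested members of the 22 gene lists, 1 point per gene, with genes that rose in red, genes that fell in blue and the rest in grey; the black bar is the list median, and the labels give how many members rose of how many tested. Red points dominate the antiviral effectors (50 of 55), whereas the lists of ribosomal, matrix and stress response genes hold grey points only, most of them left of 0.

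Of 16 tested genes of antigen presentation by MHC class I, 10 rose and none fell (median log2 fold change 1.04), and 6 rose without donor PC. B2M, the invariant light chain of class I molecules, was at 577, 494 and 397 CPM untreated and at 4120, 6567 and 1842 CPM activated (log2 fold change 2.93, SE 0.28, adjusted p = 0.00144, edgeR). The immunoproteasome subunits PSMB8 and PSMB9 rose by 2.30 and 1.85, the peptide transporter subunits TAP1 and TAP2 by 1.37 and 1.16, and the trimming peptidase ERAP1 by 1.03 on the log2 scale. PSME2, PSMB10, ERAP2 and TAPBP rose by 0.90 to 1.09 on that scale, with adjusted p-values of 0.0393 to 0.0458 (edgeR). NLRC5, a transactivator of class I genes, was at 9.86, 2.92 and 6.60 CPM and then at 16.8, 11.2 and 17.0 CPM, and narrowly missed the threshold (log2 fold change 1.34, SE 0.25, adjusted p = 0.0623, edgeR). EQMHCC1 and MHCX1, genes of the equine MHC, rose by 3.25 and 3.09 on the log2 scale. MHC genes are polymorphic and alike, so reads may be shared between them.

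Of 10 tested members of MHC class II presentation, 3 rose and none fell, and 5 rose without donor 92. DRA, the class II alpha chain, had 1, 1 and 7 counts in untreated MSC and 34, 242 and 258 counts in activated MSC (log2 fold change 6.19, SE 0.48, adjusted p = 0.000368, edgeR). CD74, the invariant chain that chaperones class II molecules, had 0, 0 and 19 counts and then 57, 303 and 618 counts (log2 fold change 6.41, SE 0.57, adjusted p = 0.000828, edgeR). Both were highest in donor 92 in either condition. These remained low transcripts, at 0.971 to 8.72 CPM for DRA and 1.63 to 20.9 CPM for CD74 after the agonist. The lysosomal protease CTSS, which cuts the invariant chain, rose by 1.83 on the log2 scale (SE 0.31). DRB differed by 0.61 on the log2 scale (SE 0.20, adjusted p = 0.43, edgeR), and CIITA, the transactivator of class II genes, had 2 counts in the untreated and 3 in the activated libraries together.

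Secreted and surface immune mediators changed in a small number of strong cases. Of 15 tested chemokines, 3 rose and 1 fell. The 3, CXCL10, CCL5 and CXCL11, draw T cells. By DESeq2 with the same block 7 rose, the others being CCL2, CCL11, CXCL12 and CXCL16, and by edgeR 6 rose without donor 99 and 8 without donor 92. CXCL10 was at 0.738, 0.887 and 0.167 CPM untreated and at 70.6, 145 and 2.06 CPM activated (log2 fold change 6.52, SE 0.55, adjusted p = 0.00058, edgeR). Donor 92 reached far less than the other donors, and its log2 ratio was 3.25 against 6.48 in PC and 7.26 in 99. CCL5 went from 0.738, 0.744 and 0.146 CPM to 45.2, 74.2 and 5.58 CPM (log2 fold change 6.09, SE 0.30), again with donor 92 lowest. CXCL11 had 0, 1 and 0 counts and then 31, 258 and 18 counts, a ratio of 343 with a 95% counting interval of 61.0 to 13600. CCL20, the CCR6 ligand, fell, from 2.22, 10.2 and 1.55 CPM to 0.914, 1.55 and 0.203 CPM (log2 fold change −2.25, SE 0.39, adjusted p = 0.0409, edgeR). Its groups overlapped narrowly. CCL2, a monocyte attractant, was at 399, 405 and 46.2 CPM and then at 584, 706 and 78.5 CPM, higher in 3 of 3 donors without passing (log2 fold change 0.71, SE 0.14, adjusted p = 0.0818, edgeR). CXCL8 differed by −2.06 on the log2 scale (SE 0.82, adjusted p = 0.61, edgeR).

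Of 22 tested immune modulators described for MSC, 4 rose and none fell. LAG3, an immune checkpoint receptor better known from T cells, had 3, 8 and 0 counts untreated and 104, 572 and 50 counts activated (log2 fold change 5.93, SE 0.48, adjusted p = 0.000499, edgeR). CD274 (PD-L1), the ligand of the checkpoint receptor PD-1, had 4, 0 and 1 counts and then 56, 21 and 24 counts (log2 fold change 4.45, SE 0.75, adjusted p = 0.037, edgeR). TNFSF10 (TRAIL), a death ligand, was at 0.257, 5.15 and 4.03 CPM and then at 27.2, 48.0 and 42.5 CPM (log2 fold change 4.02, SE 0.55), and TNFSF13B (BAFF), a B cell survival factor, rose by 3.12 on the log2 scale. TNFAIP6, an anti-inflammatory secreted protein of MSC, differed by −0.66 on the log2 scale (SE 0.18, adjusted p = 0.285, edgeR). The tryptophan-degrading enzyme IDO1 and the cytokine IL10 had no counts in any of the 6 libraries.

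No member of the NF-kB list passed the test by edgeR in the 3 donors, and CCL20, CCL5, CXCL10 and MMP9, which did pass, were not on it. Of 31 tested members of a list of NF-kB feedback genes and inflammatory mediators, 0 rose and 0 fell at an adjusted p-value under 0.05, while 0 were higher and 2 lower when p was left unadjusted (4.25% and 3.16% of all genes tested, edgeR); the median log2 fold change was −0.03. NFKB1 had a log2 fold change of −0.09 (SE 0.15), RELA of −0.03 (SE 0.15), the inhibitor NFKBIA of −0.03 (SE 0.17) and TNFAIP3 of −0.18 (SE 0.24). IL6 was at 0.417, 0.286 and 0.167 CPM untreated and at 0.485, 1.39 and 0.169 CPM activated (log2 fold change 0.95, SE 0.66), and TNF had no counts. The adhesion molecule ICAM1 was at 146, 186 and 43.9 CPM and then at 85.1, 98.2 and 31.5 CPM, lower in 3 of 3 donors without passing (log2 fold change −0.73, SE 0.15, adjusted p = 0.0994, edgeR), and it was the 1 member that fell by DESeq2. Without donor 92, 1 member of the list rose and 2 fell, where 446 of all 14060 genes tested rose and 279 fell (edgeR). Without donor 99, 2 members fell, where 55 of all 14070 genes tested fell (edgeR).

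Of 15 tested complement genes, 4 rose: C2, a component of the classical and lectin pathways, from 1.12, 7.95 and 2.86 CPM to 40.8, 68.7 and 21.1 CPM (log2 fold change 3.61, SE 0.42, adjusted p = 0.00445, edgeR), the proteases C1R (1.27 on the log2 scale, SE 0.15) and C1S (0.93, SE 0.17), and SERPING1, the inhibitor of both proteases (1.19, SE 0.17). Enzymes of the classical pathway and their inhibitor thus rose in the same libraries. Of 24 tested cell death genes, 3 rose (5 without donor 99), among them MLKL, the effector of necroptosis, from 2.76, 2.03 and 5.79 CPM to 18.6, 12.4 and 20.3 CPM (log2 fold change 2.37, SE 0.25), and the pore-forming GSDMD, by 1.42 on the log2 scale. CASP10 was just outside the threshold (log2 fold change 0.85, SE 0.16, adjusted p = 0.0575, edgeR).

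Without the donor as a block fewer list members passed. The count was 33 of 55 antiviral effectors, 5 of 18 RNA sensors and adaptors, 3 of 23 JAK, STAT and IRF regulators and 1 of 16 class I genes, and 0 chemokines, class II genes, immune modulators, cell death genes and complement genes. IRF7, OASL, MX1, ISG15, IFI6, TRIM22, TLR3, DDX58 and PSMB8 were among those that still passed. List medians differed little, for example 3.34 against 3.35 for the antiviral effectors, and the cause of the lower counts was not tested.

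Among genes in none of the lists, the equine symbol PLAC8B had 0, 0 and 9 counts untreated and 614, 1691 and 3598 counts activated (log2 fold change 9.84, SE 0.42, adjusted p = 1.67e-05, edgeR). LY6E, a membrane-anchored protein that affects virus entry, was at 27.1, 86.9 and 69.3 CPM and then at 1160, 2060 and 1060 CPM (log2 fold change 4.64, SE 0.30). SLC15A3, a lysosomal transporter of histidine and peptides, rose by 3.21, SHFL, which inhibits viral frameshifting, by 2.46, the monooxygenase MOXD1 by 2.95, PARP10A by 3.44, SMTNL1 by 3.13, the opioid growth factor receptor OGFR by 2.12, TRANK1 by 1.94, the DNA helicase HELB by 1.82 and GRINA by 1.69 on the log2 scale. FBXO39 had 2 counts in the untreated libraries together and 291 in the activated ones, a ratio of 162 (95% counting interval 44.6 to 1350), and CYP2C113 had 3 and 320, a ratio of 119 (40.4 to 580). Of the 167 genes, 28 are listed by Ensembl identifier only. ENSECAG00000019932 was at 4.43, 8.24 and 4.37 CPM and then at 251, 384 and 193 CPM, and ENSECAG00000033029 at 25.7, 33.8 and 15.4 CPM and then at 1589, 1982 and 703 CPM.

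AGRN and SRGN encode matrix and secretory granule proteoglycans. AGRN, which clusters receptors at synapses, was at 166, 123 and 94.1 CPM untreated and at 844, 646 and 474 CPM activated, without overlap (log2 fold change 2.36, SE 0.14, adjusted p = 0.000106, edgeR). SRGN, serglycin, was at 4.01, 2.83 and 1.09 CPM and then at 13.5, 17.0 and 2.50 CPM (log2 fold change 1.88, SE 0.30), and here the groups overlapped through donor 92. Both belong to the 16 genes that the study's text names for MSC, of which 13 rose by edgeR and 15 by DESeq2 with the same block, and all 16 were higher at an unadjusted p under 0.05 by edgeR. That list was chosen by the study on these libraries, so its counts are not independent evidence. The other 3 did not pass the adjusted threshold by edgeR, with log2 fold changes of 1.27 for the amino acid oxidase IL4I1 (SE 0.33), 1.51 for the Wnt deacylase NOTUM (SE 0.42) and 0.50 for ITGBL1 (SE 0.16).

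Few genes fell. Of the 7, 5 were lower in 3 of 3 donors. MMP9, a gelatinase, was at 181, 170 and 96.9 CPM untreated and at 88.8, 97.4 and 44.9 CPM activated (log2 fold change −0.98, SE 0.14, adjusted p = 0.0165, edgeR). MXRA7 was at 161, 81.5 and 64.1 CPM and then at 73.7, 52.7 and 30.5 CPM (log2 fold change −0.94, SE 0.16), and the transcription factor KLF15 at 8.51, 7.47 and 0.961 CPM and then at 2.74, 1.73 and 0.440 CPM (log2 fold change −1.69, SE 0.29). In each of the 3 the values dropped in 3 of 3 donors while the groups overlapped. ENSECAG00000021749 (log2 fold change −1.07) was the only one of the 7 whose groups did not overlap in the scaling of the 6 libraries, against 2.36% of all genes tested. SERPINB10 and MMP12, named after their values were seen, passed essentially on 1 donor. SERPINB10 had 10326 counts in untreated and 873 in activated MSC of donor 92 and no counts in donors PC and 99, and MMP12, macrophage elastase, had 1742 and 292 counts in donor 92, 23 and 5 in donor 99 and none in donor PC. Neither can be said to fall across donors. None of the 7 passed without the donor as a block.

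**Figure D4:**
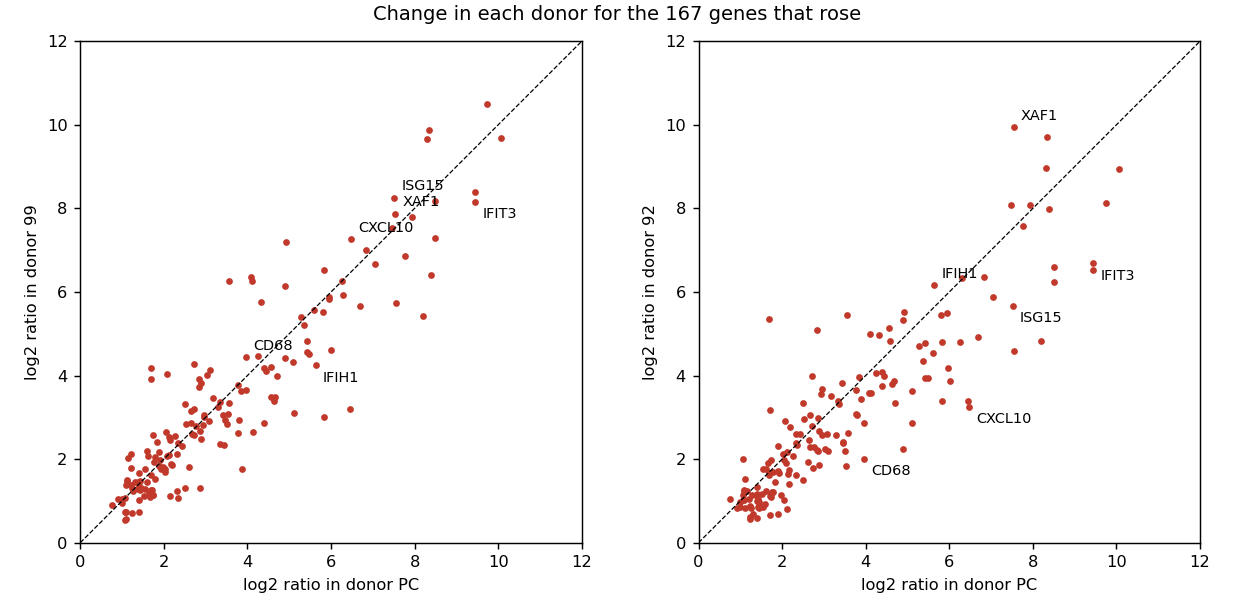
Log2 ratio of STING activated to untreated MSC within a donor for each of the 167 genes that rose, with donor PC on the x axes and donor 99 (left) or donor 92 (right) on the y axes; the dashed line marks equal ratios. Points follow the line in both panels, with more of them below it for donor 92, CXCL10 (3.25 against 6.48) and IFIT3 (6.69 against 9.45) among them, and XAF1 (9.95 against 7.54) above it.

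The size of the increase varied between donors. The median log2 ratio over the 167 genes was 2.84 in donor PC, 2.83 in donor 99 and 2.57 in donor 92, and since these genes were chosen as higher the values are a description. Donor 92 had the smallest ratio in 95 of the 167 genes, donor 99 in 46 and donor PC in 26. The ratios of the 3 donors spanned a median of 0.85 on the log2 scale, more than 1 in 72 genes and more than 2 in 23. Donor 92 lay more than 1 below the mean of the other donors in 31 genes and more than 1 above it in 7. Genes that reached less in donor 92 included CXCL10, ISG15 (log2 ratio 5.66, against 7.52 in PC and 8.26 in 99), IFIT3 (6.69, against 9.45 and 8.16) and the lysosomal protein CD68. In contrast, XAF1 (9.95, against 7.54 and 7.88) and IFIH1 (6.17, against 5.64 and 4.24) had their largest ratio in donor 92. With 1 library per donor and condition, a difference between donors has no replicate check.

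Markers of other cell types did not rise with the agonist, apart from CD68. Of 14 tested blood and endothelial cell markers, 1 rose and none fell (median log2 fold change −0.13). CD68, a lysosomal glycoprotein used as a macrophage marker, was at 12.01, 15.4 and 12.8 CPM untreated and at 189, 337 and 51.5 CPM activated (log2 fold change 3.50, SE 0.45, adjusted p = 0.00793, edgeR). The summed level of all 24 markers was 71.7 to 89.9 CPM in untreated and 126 to 366 CPM in activated MSC, but without CD68 and the endothelial gene PECAM1 it was 17.1 to 25.9 and 13.4 to 25.6 CPM. PTPRC, CD14 and CSF1R were at or below 0.65 CPM in all 6 libraries. Of 18 tested MSC surface and niche markers 0 rose or fell by edgeR (median log2 fold change −0.01; 2 were higher at an unadjusted p under 0.05, 1, THY1, rose by DESeq2, and without donor 92 2 rose and 1 fell by edgeR). THY1 was higher in 3 of 3 donors, at 171, 255 and 602 CPM and then at 315, 525 and 841 CPM, without passing (log2 fold change 0.80, SE 0.16, adjusted p = 0.0818, edgeR). Of 23 tested lineage genes of bone, fat and cartilage 0 passed by either tool (median log2 fold change −0.16; 3 were higher at an unadjusted p under 0.05 by edgeR, and 1 rose without donor 92). Of all genes tested, 4.25% were higher at an unadjusted p under 0.05 by edgeR. Without donor 92, 446 of all 14060 genes tested rose and 279 fell (edgeR).

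In several lists of housekeeping and matrix genes most values lay below 0, but no member passed the test in the 3 donors. Of all 14479 genes tested, 7502 had a log2 fold change below 0, and 3.16% were lower at an unadjusted p under 0.05 (edgeR). Of 68 tested cytosolic ribosomal protein genes, 67 had a log2 fold change below 0, with a median of −0.35 and donor medians of −0.17 in PC, −0.28 in 99 and −0.61 in 92, while 0 fell after adjustment and 30 lay under 0.05 in unadjusted p (edgeR). Among these, RPS3 was at 939, 1527 and 1530 CPM and then at 676, 940 and 946 CPM (log2 fold change −0.62, SE 0.14, adjusted p = 0.144, edgeR). Of 33 translation factors 24 lay below 0 (median −0.18). EEF1B2, a subunit of the elongation factor complex, was the nearest to the threshold, at 626, 837 and 958 CPM and then at 373, 529 and 511 CPM (log2 fold change −0.77, SE 0.14, adjusted p = 0.0519, edgeR). Of 35 extracellular matrix genes 27 lay below 0 (median −0.30; donor medians −0.37 in PC, −0.63 in 99 and −0.02 in 92). FBN1, the microfibril protein fibrillin-1, was at 2884, 2728 and 1915 CPM and then at 1290, 848 and 1597 CPM (log2 fold change −1.04, SE 0.26, adjusted p = 0.2, edgeR). By DESeq2 with the same block, 3 ribosomal genes (RPL10, RPS3 and RPS3A), 2 translation factors (EEF1A1 and EEF1B2) and 3 matrix genes (COL5A1, COL12A1 and FBN1) fell. Of 24 genes of the unfolded protein and integrated stress response 20 lay below 0 (median −0.17), and 0 passed by either tool. At an unadjusted p under 0.05 by edgeR, 9 translation factors, 11 matrix genes and 3 of these stress response genes were lower. Leaving out donor 92 changed these counts: 18 matrix genes fell and 2 rose, 7 ribosomal genes fell, 5 translation factors fell and 1 rose, and 2 stress response genes fell (edgeR). In that setting 279 of all 14060 genes tested fell and 446 rose. CPM values are relative to the scaled library total, and whether the share taken by other genes moved these values was not tested.

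Proliferation genes differed between donors in direction. Of all 14479 genes tested, 6977 had a log2 fold change above 0, and 4.25% were higher at an unadjusted p-value under 0.05 by edgeR. Of 46 tested genes of DNA replication and mitosis 0 passed by edgeR or DESeq2, and 3 had a higher level at an unadjusted p-value under 0.05 by edgeR. In the fit 41 of the 46 had a log2 fold change above 0, with a median of 0.25, but the donor medians were 0.14 in PC, 1.07 in 99 and −0.26 in 92. Without donor 92 the median was 0.56 and 9 members rose, and without donor 99 it was −0.08 and 0 rose (edgeR). KIF20A, a mitotic kinesin, was at 11.3, 30.7 and 128 CPM untreated and at 18.6, 106 and 144 CPM activated, so donors differed more than conditions. Sterol synthesis genes had a median log2 fold change of 0.23 with 21 of 24 above 0 (donor medians 0.55 in PC, 0.15 in 99 and 0.01 in 92), with 0 of 24 past the threshold by either tool and 4 higher at an unadjusted p under 0.05 by edgeR. Without donor PC their median was 0.08, and 4 members rose without donor 92 and 1 without donor 99. Of all genes tested, 446 of 14060 rose without donor 92 and 253 of 14070 without donor 99 (edgeR).

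A direct contrast set STING activated against TLR3 activated MSC with the donor as a block (15099 genes). It was fitted over all 12 MSC libraries, so untreated and CpG libraries entered the scaling, the donor terms and the estimate of spread. At an adjusted p-value under 0.05 it called 0 genes (0% of genes tested), with 434 genes at an unadjusted p-value under 0.05 by edgeR. Over the same libraries DESeq2 called 6. Fitted on only the 6 libraries of the contrast, edgeR also called 0 genes, with 813 at an unadjusted p-value under 0.05. The TLR3 agonist library of donor 92 stood apart in this contrast. The mean of log2(CPM + 1) over the 55 antiviral effectors was 6.88, 6.79 and 6.26 in STING activated MSC of donors PC, 99 and 92, and 7.16, 6.15 and 3.11 in TLR3 activated MSC, against 3.11, 3.39 and 3.19 in untreated MSC. TLR3 activated MSC of donor 92 sat within the range of untreated MSC, while those of donors PC and 99 lay near STING activated MSC. Without donor 92 the contrast also called 0 genes, with 427 at an unadjusted p-value under 0.05 by edgeR. In the 12-library scaling MX1 was at 532, 935 and 661 CPM after the STING agonist and at 633, 519 and 3.64 CPM after the TLR3 agonist, and ISG15 at 1470, 2340 and 723 CPM and at 1990, 1370 and 9.27 CPM. Both genes were higher after the TLR3 agonist in donor PC and higher after the STING agonist in donors 99 and 92.

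**Figure D5:**
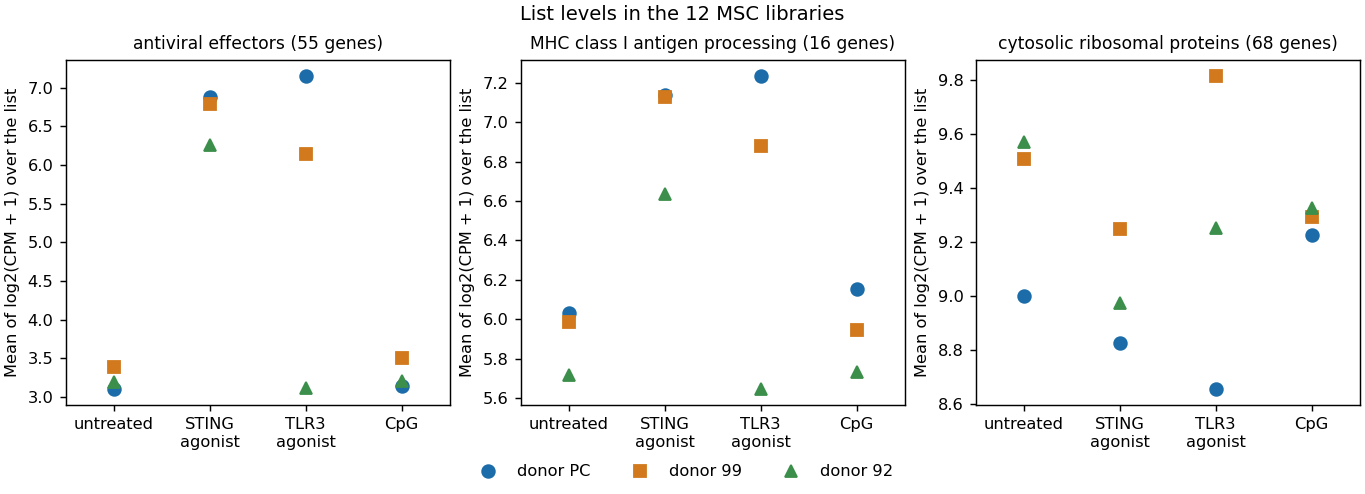
Mean of log2(CPM + 1) over the members of 3 gene lists in each of the 12 MSC libraries, by condition, with donors as in the legend; the y axes do not start at 0. For antiviral effectors the 3 STING activated libraries lie between 6.26 and 6.88 and the CpG libraries between 3.15 and 3.50, while the TLR3 library of donor 92 lies at 3.11, apart from those of donors PC and 99.

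The class II genes DRA and CD74 were higher after the STING than after the TLR3 agonist in 3 of 3 donors, though neither passed the test by edgeR. DRA was at 0.975, 6.26 and 8.60 CPM after the STING agonist and at 0.120, 0.206 and 0.0552 CPM after the TLR3 agonist, without overlap. Its log2 difference was 4.95 (SE 0.61), with the smallest adjusted p-value of this contrast, 0.0915 by edgeR, which missed the threshold, and 1.03e-07 by DESeq2. Without donor 92 the difference in DRA was 4.13 (SE 0.61, adjusted p = 1 by edgeR and 0.00149 by DESeq2), and in the 6 libraries of the contrast alone its adjusted p was 0.349 by edgeR. CD74 was at 1.63, 7.84 and 20.6 CPM and at 0.341, 0.0914 and 0 CPM, a log2 difference of 5.39 (SE 1.08, adjusted p = 1 by edgeR) that was 4.15 (SE 1.02) without donor 92. LAG3 was at 2.98, 14.8 and 1.67 CPM after the STING agonist and at 0.944, 1.26 and 0.110 CPM after the TLR3 agonist (log2 difference 2.79, SE 0.63, adjusted p = 1 by edgeR, and 2.68, SE 0.46, without donor 92). The other genes called by DESeq2 were SRGN, SUSD4 and CALHM5, higher after the STING agonist, and KLK10 and LOXL2, lower after it, all named after their values were seen. Without donor 92, a setting chosen after seeing the data, DESeq2 called 8 genes, of which DRA and SRGN were shared with the 6 and LAG3 was another.

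STING activated MSC differed from MSC labelled CpG in 60 genes, with 49 higher (0.325% of genes tested) and 11 lower (0.0729%) after the STING agonist by edgeR over the 12 libraries. Of the 167 genes that rose against untreated MSC, 39 were among the 49. All 167 were higher than in CpG labelled MSC in 3 of 3 donors, against 17.9% of all genes tested, but they had been chosen as higher in the same STING activated libraries, so this is a description. In antiviral genes, B2M and CXCL11 the CpG libraries sat with untreated MSC. Their antiviral list level was 3.15, 3.50 and 3.20 against 3.11, 3.39 and 3.19 in untreated MSC, B2M was at 667, 438 and 382 CPM in the 12-library scaling, and CXCL11 had no counts in any of them. Among the lists, 12 of 55 antiviral effectors and 7 of 16 chemokines were higher, and 1 chemokine was lower. Beside CXCL11, CCL5 had a log2 difference of 6.66 (SE 0.85), CXCL10 of 7.35 (SE 1.12), CCL11 1.82 (SE 0.23), CXCL12 1.71 (SE 0.29), CXCL16 1.28 (SE 0.18) and CCL2 0.98 (SE 0.12), and CCL20 was lower by −2.35 (SE 0.38). CCL2, CCL11, CXCL12 and CXCL16 passed here and not against untreated MSC by edgeR, but rose against untreated MSC by DESeq2 with the donor as a block. The contrasts share the STING activated libraries and come from fits over 12 and 6 libraries, and whether they differ was not tested. The count of 60 fell to 0 without the donor as a block and without donor PC or donor 99, and was 201 without donor 92 and 376 when only the 6 libraries of the contrast were fitted.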

How the data were processed

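The deposited values are counts per gene: the authors trimmed reads with Cutadapt 1.12, aligned them with STAR to the horse genome EquCab3.0, counted them with HTSeq 0.11.0 on an Ensembl annotation and kept protein coding genes, without normalization (methods and the submitters' processing notes). The table lists 20881 genes, 3970 by Ensembl identifier only. The file holds 10 values in 2 genes rounded to an exponent form with 3 digits. Joint cell libraries were not used. Depth was 28570632 to 48320694 counts per library.

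Groups and donors came from the sample labels. Genes with at least 10 counts over the 6 libraries were tested with edgeR 4.0.16 in R 4.3.3 (TMM scaling, glmQLFit and glmQLFTest, donor as a block, Benjamini-Hochberg, threshold 0.05). Replicates are cultures of 3 donor horses, 1 library per donor and condition. The donor names pair the libraries: across genes, deviations from the condition mean correlated between the libraries of the same donor with r = 0.808 (PC), 0.649 (99) and 0.8 (92). Direct contrasts with TLR3 agonist and CpG libraries used all 12 MSC libraries. Per-donor log2 ratios carry a prior count of 2, and list levels a pseudocount of 1. Lists were described by counts and medians, with no test. The scripts were tested on simulated data.

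The comparison, the gene lists and the alternatives were chosen with earlier results of these data known. Named genes were, among genes past the threshold with 1 direction in all 3 donors, up to 25 per direction by p and up to 15 per direction in no list, up to 6 per list by p with each pathway's defining members, and the genes the study's text names; others are said to be chosen after their values were seen, and further list members are given with their list counts. Alternatives were DESeq2 1.42.0, other scalings, filters, library sets and leaving out each donor. No genome sequence was used. Some results are not reported here.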

Additional observations from a re-analysis of the deposited data

How the results depend on the processing

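The direction of all genes named above as called was the same under every alternative that tested them. Of the 92 such genes, the number still past the threshold was 89 with median-ratio size factors, 92 with no low-count filter, 91 with robust empirical Bayes, 91 with DESeq2 and the replicate block and 74 with DESeq2 and no block; with filterByExpr it was 79 of the 91 tested. It was 32 with no replicate block, 2 over 9 libraries and 13 over 12 libraries, and 87 over 11 libraries without the TLR3 agonist library of donor 92, a setting chosen after seeing the data. The count of changed genes, 174, was 54 with no replicate block, 2 over 9 libraries, 15 over 12 libraries and 291 with DESeq2 and the replicate block (235 higher and 56 lower), and ran from 160 to 725 when each donor was left out. The count under the study's thresholds, 183, kept within 1.5 times of that value, from 129 with filterByExpr to 234 without donor 92. The cause of these differences was not tested.

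Leaving out each donor moved list medians (log2 fold change) over these ranges: MHC class I 0.97 to 1.08, complement 0.64 to 0.73, RNA sensors 1.05 to 1.85, JAK, STAT and IRF regulators 0.43 to 0.54, cell death 0.19 to 0.35, MSC surface markers −0.11 to 0.16, cGAS-STING pathway 0.0684 to 0.153, NF-kB −0.0181 to 0.0962, DNA replication −0.0782 to 0.558, sterol synthesis 0.0763 to 0.34, matrix −0.52 to −0.129, ribosomal −0.46 to −0.205, blood and endothelial markers −0.216 to 0.00469, chemokines 0.634 to 1.13 and immune modulators 0.0605 to 0.246. MHC class II, at 0.97 with all 3 donors, ran from 0.666 without donor 99 to 1.39 without donor 92. MHC class I was 1.01 over 11 libraries. The list of interferons and their receptors (−0.30, 6 receptor chains) was at −0.13 over 9 libraries, −0.15 over 12 and −0.14 with no low-count filter. These settings can test other members of the list, 8 over 12 libraries, so the medians need not be of the same genes. Lineage genes were at −0.0758 with filterByExpr. Against the TLR3 agonist DESeq2 called 6 genes in place of 0, and 8 without donor 92, and each donor left out gave 0 by edgeR. Against CpG the 60 genes became 376 with the 6 libraries of the contrast, 0 with no replicate block, 666 with DESeq2 and 0 to 201 when each donor was left out. A planned search of promoters for motifs was not run. Of the 167 genes that rose, 7 had a log2 fold change under 1.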

Other observations

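Untreated MSC of the 3 donors differed from each other in genes outside the response. Untreated MSC of donor 92 were at 5 CPM or more and over 8-fold above both other donors in 60 genes, against 10 for donor PC and 12 for donor 99. Donor 92 was over 8-fold below both other donors, each at 5 CPM or more, in 87 genes, against 4 for donor PC and 8 for donor 99. The bone transcription factors DLX5 and SP7 were at 38.8 and 16.3 CPM in donor PC and 28.6 and 6.84 CPM in donor 99 but both at 0.251 CPM in donor 92, and alkaline phosphatase (ALPL) was at 412, 103 and 22.2 CPM in donors PC, 99 and 92. The smooth muscle genes ACTG2 (789, 199 and 3239 CPM) and DES (29.8, 1.69 and 277 CPM), the collagenase MMP1 (0.0321, 0.258 and 148 CPM) and the mitotic kinesin KIF20A (11.3, 30.7 and 128 CPM) were highest in donor 92. The interferon gamma receptor chain IFNGR2 was at 111, 145 and 10.1 CPM. STING activated MSC kept these orders, for example DLX5 at 49.6, 49.1 and 0.338 CPM and ACTG2 at 538, 142 and 1703 CPM. With 1 untreated library per donor these differences have no replicate check, and the genes were chosen after their values were seen.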
